A study of Mus musculus with 12 samples.

Results

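The S100 genes encode small calcium-binding proteins, and 10 of them were followed here across 3 kinds of mouse pancreas sample. Their members were taken as every array feature (a probe set, a group of short probes against one transcript) whose single annotated gene symbol was S100a1, S100a4, S100a6, S100a8, S100a9, S100a10, S100a11, S100a13, S100a14 or S100a16. Of the 10 genes, 9 had a probe set of their own, with 13 probe sets in all, out of 18194 genes with a probe set of their own on the array. S100a11 was covered only by a probe set that carries several gene symbols, and no value is given for it. All 9 measured members were tested, since they exceeded the 30th percentile of their array on at least 4 arrays, as did 14991 genes in all.

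Affymetrix arrays were hybridised with RNA from 12 samples in 3 groups of 4, lettered A to D. Acini are freshly isolated pancreatic exocrine acini, the enzyme-secreting units of the gland, and according to the methods they came from adult mice. Ducts are ductal organoids, 3-dimensional cultures grown from handpicked fragments of native pancreatic duct. yDucts are ductal organoids that grew from acini of R26-rtTA; tetO-YAP S127A mice after doxycycline had switched on YAP, a transcriptional co-activator. In these mice rtTA, the doxycycline-dependent activator, is made from the R26 locus, which is active in most cell types, so the transgene is not restricted to acinar cells by its driver. The methods state that yDucts were later kept without doxycycline. Both kinds of organoid were grown in Matrigel in medium with B27, N-acetylcysteine, gastrin, EGF, Noggin, FGF10, nicotinamide and R-Spondin1, whereas Acini were not cultured. The labels call the 4 arrays of a group biological replicates, and the study describes them as distinct biological samples. Neither the genotype of the mice behind the Acini and Ducts arrays nor whether a group's arrays stand for different animals, isolations or cultures is given in the sources used here. Each p-value rests on sample-to-sample spread within groups, part of which can be technical.

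S100 proteins carry a pair of EF-hand motifs, the helix-loop-helix fold that holds a calcium ion, and most of them act as dimers. Calcium opens a surface on the dimer that grips partner proteins, among them annexins, cytoskeletal proteins and p53. Some are also released from cells and act on the receptors RAGE (Ager) and TLR4 (Tlr4). In epithelia the family is known for S100a6, S100a10, S100a11 and S100a14, while S100a8 and S100a9 are best known from neutrophils and from inflamed or stressed epithelium.

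Acinar markers fell on the organoid arrays, with 12 of 12 tested genes lower in Ducts and in yDucts, and 6 of 10 tested ductal markers were higher in each, where 42.7% and 43.6% of all tested genes were called higher. In yDucts 1 ductal marker was lower, Muc1 (-0.67, limma, adjusted p = 0.00656), named after its value was seen. All 11 fibroblast and mural markers and all 11 endothelial markers were also lower in both kinds of organoid. Of all tested genes, 33.1% were called lower in Ducts and 32.6% in yDucts. The arrays were not equally alike within a group. Acini arrays differed from each other by more than 2-fold at 1074 to 2142 genes a pair. Ducts A and B differed from Ducts C and D at 1398 to 2111 genes a pair, and from each other at 884. Ducts C and D differed at 78 genes and yDucts A and C at 12. yDucts D differed from yDucts A and C at 96 and 103 genes, and yDucts B from the other yDucts arrays at 441 to 471. The signal of the control probe sets for Gapdh was stronger toward the 3′ end than toward the 5′ end by 1.29 to 1.91 (log2) in Acini, whereas in organoids this gap lay between -0.17 and 0.02. For beta-actin the gap was 1.51 to 2.33 in Acini, 0.66 to 0.81 in Ducts and 0.44 to 0.59 in yDucts. These measures of RNA integrity moved with the group in every comparison against Acini, and their part in those differences was not tested. The 30th percentile of the arrays was also higher in Acini (3.64 to 3.79) than in Ducts (3.19 to 3.23) or yDucts (3.18 to 3.21). Its part in differences of genes near background was not tested. In bulk RNA, fewer cells of a type and less RNA per cell cannot be told apart.

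Against Acini, 5 of the 9 measured S100 genes were higher in Ducts and none was lower. S100a6 rose 59.3-fold, S100a14 44.3-fold, S100a10 9.99-fold, S100a9 4.62-fold and S100a4 3.48-fold. The Acini means of S100a14, S100a4 and S100a9 were low (4.63, 4.58 and 4.38), where the medians of the Acini arrays were 4.54 to 4.62. Folds of these genes over Acini therefore rest on low Acini values. In yDucts 5 of the 9 were higher than in Acini and none was lower: S100a6 (65.1-fold), S100a10 (13.3-fold), S100a4 (11.4-fold), S100a14 (9.08-fold) and S100a13 (1.67-fold). Calls are by limma at an adjusted p under 0.05 over all tested genes, and both comparisons share the same 4 Acini arrays. Calls were common in these comparisons: 42.7% of all tested genes were called higher and 33.1% lower in Ducts, and 43.6% higher and 32.6% lower in yDucts. The share of S100 genes called higher, 5 of 9, therefore lay near that of all genes. The median difference from Acini over the 9 members was 1.80 (log2) in Ducts and 0.74 in yDucts, where the medians over all tested genes were 0.21 and 0.24. Quantile normalization across the 12 arrays lowered those medians to -0.15 and -0.16, and it lowered the share of higher genes among all calls from 56.3% to 44% in Ducts and from 57.2% to 44.9% in yDucts. Between the organoids, yDucts against Ducts, no S100 gene was called higher and 2 were called lower, S100a9 (7.77-fold) and S100a14 (4.88-fold). Here calls were rare, at 2.15% of all tested genes higher and 0.987% lower.

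**Figure D1:**
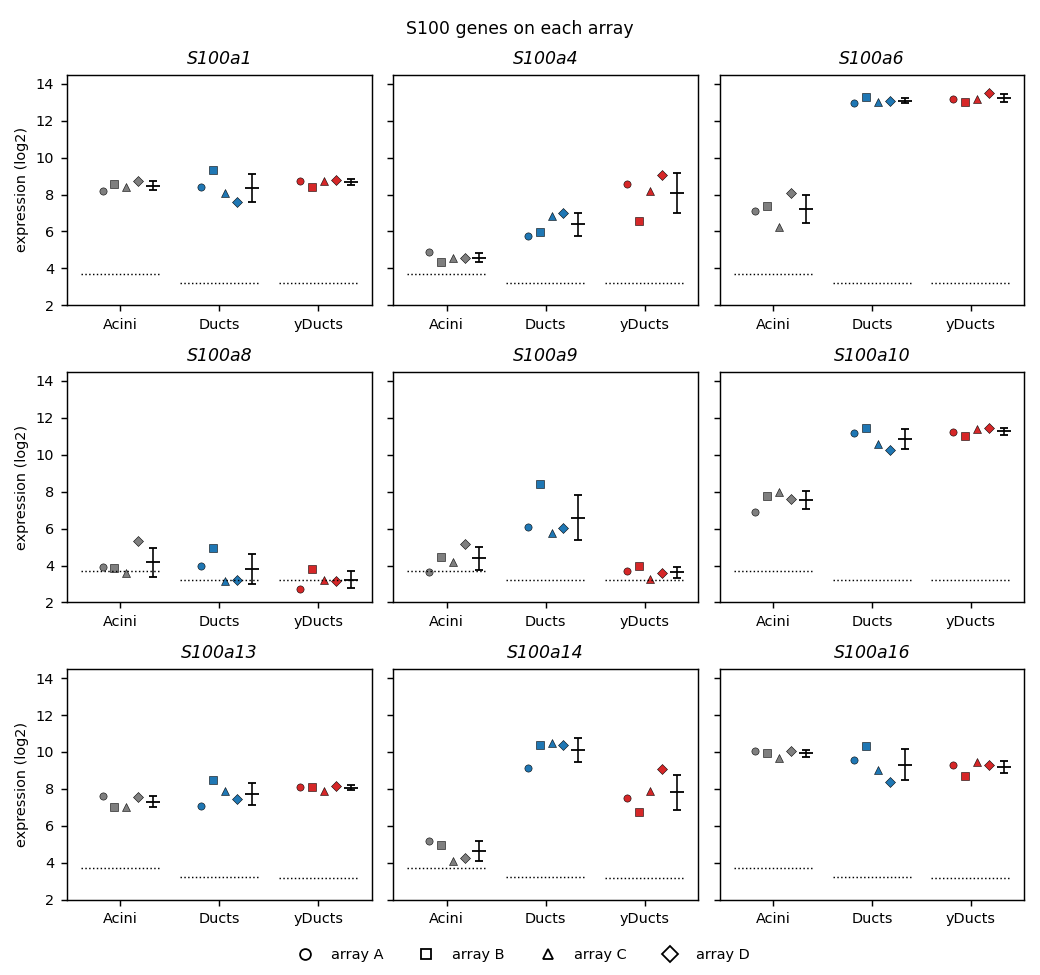
Expression (log2) of the 9 measured S100 genes on each array, grouped as Acini, Ducts and yDucts, with a symbol for each array letter. The bar beside each group is its mean ± SD (n = 4) and the dotted line the mean of the group's 30th percentiles over all probe sets; S100a6, S100a10 and S100a14 sit higher on all 8 organoid arrays than on any Acini array, and S100a9 is high in Ducts but not in yDucts.

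S100a6, also called calcyclin, binds annexins and the ubiquitin ligase adaptor CacyBP and is abundant in dividing epithelial cells and fibroblasts. Its values (log2) on Acini A to D were 7.13, 7.36, 6.22 and 8.07, on Ducts A to D 12.98, 13.29, 13.03 and 13.04, and on yDucts A to D 13.20, 13.00, 13.17 and 13.51. All 8 organoid arrays stood far above all 4 Acini arrays, and the spread was wider in Acini (SD 0.76) than in Ducts (SD 0.14) or yDucts (SD 0.21). The difference from Acini was 5.89 ± 0.30 (SE) in Ducts (limma, adjusted p = 3.83e-09) and 6.03 ± 0.30 in yDucts (limma, adjusted p = 3.32e-09). Ducts and yDucts overlapped, with a difference of 0.14 and a 95% confidence interval from -0.51 to 0.78.

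The 250 bases upstream of the start of S100a6 and of 3 more members, S100a4, S100a8 and S100a9, are printed here because these neighbouring genes had unlike levels across the groups: S100a6 was high in both organoids, S100a4 was raised less in Ducts, S100a9 was raised in Ducts, and S100a8 stayed near background. The windows come from RefSeq on build GRCm38.p6, in a table that matched 8 of the 10 members, and each is read 5′ to 3′ on the strand of its gene. Capitals mark a match on either strand to 1 of 6 motifs searched: TATAAA (the core promoter box), GGAATG (bound by TEAD, the DNA-binding partners of YAP), TGANTCA (AP-1), TTGCNNAA (C/EBP), GGGNNTTCC (NF-kB) and GGGCGG (Sp1). N stands for any base. Of 32851 promoter windows of the same length, 12.4% held TATAAA, 12.6% GGAATG, 6.75% TGANTCA, 9.56% TTGCNNAA, 4.98% GGGNNTTCC and 32.7% GGGCGG.
S100a6 (chr3:90612644-90612893, plus strand): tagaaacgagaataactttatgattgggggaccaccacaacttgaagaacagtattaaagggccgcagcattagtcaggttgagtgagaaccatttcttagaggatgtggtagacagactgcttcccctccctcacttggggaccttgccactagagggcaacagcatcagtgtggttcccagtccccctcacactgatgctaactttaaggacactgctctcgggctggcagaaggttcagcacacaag
S100a4 (chr3:90603520-90603769, plus strand): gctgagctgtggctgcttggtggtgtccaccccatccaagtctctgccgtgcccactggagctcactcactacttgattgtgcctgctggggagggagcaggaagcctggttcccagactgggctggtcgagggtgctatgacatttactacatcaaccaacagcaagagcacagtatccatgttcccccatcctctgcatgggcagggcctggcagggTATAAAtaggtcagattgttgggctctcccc
S100a8 (chr3:90668821-90669070, plus strand): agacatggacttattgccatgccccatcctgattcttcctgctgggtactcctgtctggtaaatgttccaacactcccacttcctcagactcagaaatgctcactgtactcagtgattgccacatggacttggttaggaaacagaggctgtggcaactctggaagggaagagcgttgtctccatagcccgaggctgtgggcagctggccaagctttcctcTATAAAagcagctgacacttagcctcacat
S100a9 (chr3:90695722-90695971, minus strand): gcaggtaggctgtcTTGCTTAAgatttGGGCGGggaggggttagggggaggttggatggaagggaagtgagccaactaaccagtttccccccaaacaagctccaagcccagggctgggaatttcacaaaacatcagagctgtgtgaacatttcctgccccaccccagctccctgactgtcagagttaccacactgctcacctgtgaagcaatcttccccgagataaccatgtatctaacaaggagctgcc

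The S100a4 window held TATAAA beginning 31 bases before the start of the gene and the S100a8 window 30 bases before it. The S100a9 window held TTGCTTAA at 236 bases and GGGCGG at 223 bases before the start, and the S100a6 window held none of the 6 motifs. GGAATG was in none of the windows of the 8 members. These are matches of letters and were not tested for function.

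S100a10, known as p11, is a member that no longer binds calcium and that forms a tetramer with annexin A2 beneath the plasma membrane. On its brightest probe set Acini A to D read 6.89, 7.75, 7.97 and 7.58, Ducts A to D 11.18, 11.44, 10.60 and 10.25, and yDucts A to D 11.25, 11.02, 11.40 and 11.44. The organoid arrays were all above the Acini arrays, by 3.32 ± 0.28 (SE) in Ducts (limma, adjusted p = 3.13e-07) and by 3.73 ± 0.28 in yDucts (limma, adjusted p = 1.16e-07). Ducts and yDucts differed by 0.41 (95% interval -0.19 to 1.01), with Ducts C and D below all other organoid arrays. A second probe set gave 2.65 and 2.76 for the same differences from Acini, while the third lay between 4.19 and 5.41 on all 12 arrays and differed from Acini by 0.03 in Ducts and -0.17 in yDucts.

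Annexin A2 (Anxa2), the partner of S100a10, read 8.20, 9.09, 8.86 and 8.42 on Acini A to D, 12.97, 12.88, 12.00 and 11.41 on Ducts A to D, and 13.57, 13.24, 13.46 and 13.64 on yDucts A to D. It was therefore higher on every organoid array, by 3.67 in Ducts and 4.84 in yDucts, and its lowest organoid values were on Ducts C and D, as for S100a10. Annexins are calcium-dependent membrane-binding proteins, and several of them are known S100 partners. Of 11 tested annexins, 9 were higher in Ducts and none was lower (median difference 3.15), and 10 were higher in yDucts and none was lower (median 3.64). Among all tested genes, 42.7% were called higher and 33.1% lower in Ducts, and 43.6% and 32.6% in yDucts. Anxa3 rose by 6.01 in Ducts and 5.58 in yDucts, Anxa13, an annexin of gut and kidney epithelium, by 4.33 and 5.10, Anxa8 by 4.08 and 5.70, and Anxa1, the partner of S100a11, by 3.98 and 4.12. Anxa6 was called in neither, at -0.14 and -0.21. None of the 11 was called between yDucts and Ducts, although Anxa2 was higher on all 4 yDucts arrays (difference 1.16, limma, adjusted p = 0.0725).

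**Figure D2:**
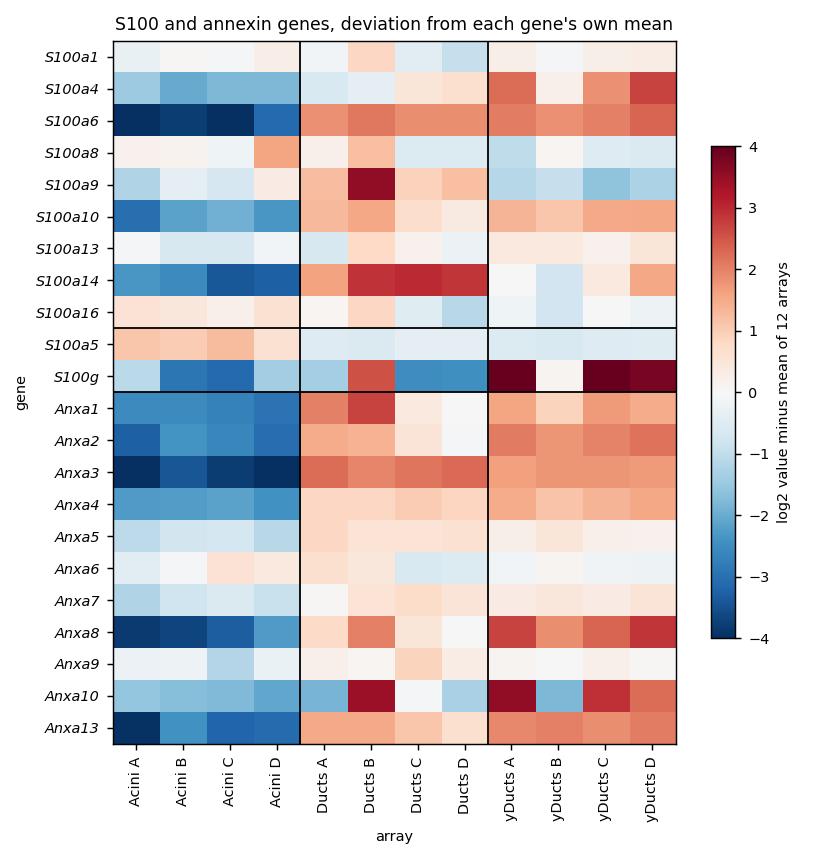
Values of S100 genes and annexins on the 12 arrays as log2 minus the gene's mean over the arrays, from blue (lower) to red (higher), with the colour limited to ±4. The 9 members are at the top, S100a5 and S100g in the middle and the 11 annexins below; S100a6, S100a10, S100a14 and most annexins change between Acini and organoids, while S100g and Anxa10 are high on Ducts B and on yDucts A, C and D.

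S100a14 is an epithelial member whose second EF-hand has lost much of its calcium binding. Acini A to D read 5.18, 4.96, 4.11 and 4.26, Ducts A to D 9.11, 10.40, 10.50 and 10.38, and yDucts A to D 7.51, 6.76, 7.91 and 9.06. The 3 groups did not overlap, with Acini lowest, yDucts in the middle and Ducts highest, and the gap between the highest yDucts array (9.06) and the lowest Ducts array (9.11) was small. The difference from Acini was 5.47 ± 0.45 (SE) in Ducts (limma, adjusted p = 2.98e-07) and 3.18 ± 0.45 in yDucts (limma, adjusted p = 3.31e-05). yDucts were lower than Ducts by 2.29 on the log2 scale (-2.29 ± 0.45, limma, adjusted p = 0.0143). This call was lost without Ducts C (-2.15, adjusted p = 0.053), without yDucts A (-2.19, adjusted p = 0.0618) and when Ducts C and D were both left out (-1.95, adjusted p = 0.136).

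S100a4, also called metastasin, binds non-muscle myosin II and is known from fibroblasts, leukocytes and motile or mesenchymal-like cells. Acini A to D read 4.89, 4.33, 4.55 and 4.55, Ducts A to D 5.74, 5.95, 6.83 and 6.99, and yDucts A to D 8.57, 6.56, 8.17 and 9.05. All organoid arrays were above all Acini arrays, and yDucts A, C and D were above all Ducts arrays whereas yDucts B lay among them. S100a4 rose by 1.80 ± 0.45 (SE) in Ducts (limma, adjusted p = 0.00277) and by 3.51 ± 0.45 in yDucts (limma, adjusted p = 1.37e-05). The Ducts call was lost after cyclic loess normalization (1.06, adjusted p = 0.0575). Between yDucts and Ducts the difference was 1.71 ± 0.45 and was not called (limma, adjusted p = 0.0625). It passed the threshold without yDucts B (2.22, adjusted p = 0.00247) and with array weights (1.58, adjusted p = 0.00185). The summed level (log2) of the 11 fibroblast and mural genes was 11.9 to 12.7 in Acini, 6.82 to 6.98 in Ducts and 6.88 to 6.97 in yDucts. Col3a1, Pdgfra, Postn and Rgs5 were under the 30th percentile on every organoid array. The other markers of that list exceeded it on some or all organoid arrays. Which cells held the S100a4 RNA was not tested.

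S100a9 and S100a8 pair as calprotectin, a heterodimer that sequesters zinc and manganese and signals through TLR4. S100a9 read 3.67, 4.47, 4.20 and 5.19 on Acini A to D, 6.09, 8.42, 5.79 and 6.06 on Ducts A to D, and 3.73, 3.95, 3.25 and 3.60 on yDucts A to D. Every Ducts array was above every Acini and yDucts array, and Ducts B stood apart at the top. Outside Ducts, S100a9 lay near background, with 1 Acini array under its 30th percentile. Its yDucts values of 3.25 to 3.95 lay little above the 30th percentiles of those arrays, 3.18 to 3.21. The difference of Ducts from Acini was 2.21 ± 0.50 (SE; limma, adjusted p = 0.00135) and that of yDucts from Ducts -2.96 ± 0.50 (limma, adjusted p = 0.00531). Without Ducts B they were 1.60 (adjusted p = 0.000388) and -2.35 (adjusted p = 0.000792). yDucts differed from Acini by -0.75 and were not called (limma, adjusted p = 0.183), a difference that passed without Ducts B, through the smaller residual spread of that fit (adjusted p = 0.0249).

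S100a8 stayed near background. Acini A to D read 3.91, 3.88, 3.58 and 5.32, Ducts A to D 3.96, 4.94, 3.19 and 3.20, and yDucts A to D 2.73, 3.82, 3.23 and 3.18, so that 4 of the 12 arrays were under the 30th percentile of their array. The groups overlapped and no difference was called: -0.35 in Ducts and -0.93 in yDucts against Acini (limma, adjusted p = 0.473 and 0.0656). Within groups, S100a8 and S100a9 deviated alike (Pearson r = 0.80 over the 12 arrays after each group's mean was removed). Both were highest on Acini D, Ducts B and yDucts B within their groups.

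Neutrophil and myeloid markers were mostly lower in the organoids, with 11 of 14 tested genes lower and 2 higher, Cd14 and Cd68, in Ducts as in yDucts. Of all tested genes, 33.1% were called lower and 42.7% higher in Ducts, and 32.6% and 43.6% in yDucts. Mpo, Cxcr2, Mmp8 and Ptprc, which define neutrophils or all leukocytes, were under the 30th percentile on every Ducts and yDucts array. Cxcr2 was also under it on all 4 Acini arrays, and Mpo and Mmp8 on 2 Acini arrays each. The neutrophil markers Ngp, Elane and Mmp9 exceeded it on every organoid array. The summed level (log2) of the 18 measured myeloid markers was 9.72 to 10.4 in Acini, 9.11 to 12.6 in Ducts and 12.3 to 12.7 in yDucts. On the organoid arrays that sum followed Cd14, which also occurs in epithelium and read 11.91, 12.50, 8.68 and 8.07 on Ducts A to D.

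Genes of epithelial defence had varied patterns across the groups. Lcn2, an iron-siderophore-binding protein often found with calprotectin, read 13.31, 13.76, 8.09 and 7.36 on Ducts A to D and 11.48 to 13.47 on the yDucts arrays, against 3.59 to 4.68 in Acini. Ducts A and B were thus high and C and D lower, a split that S100a9 did not show. Within Ducts, Lcn2 and S100a9 were both highest on array B. Cxcl5, a neutrophil-attracting chemokine, read 12.44, 13.11, 8.57 and 8.37 on Ducts A to D and 10.79 to 12.50 in yDucts. All measured defence genes except Saa1, Saa3 and Reg3b were likewise highest within Ducts on B, some by a small margin. Among them were Pigr and Duoxa2 (9.45 and 8.12 on Ducts B). Saa1, Saa3 and Reg3b read 3.17, 6.49 and 6.73 on Ducts B. Pigr read 2.64 to 3.25 in yDucts and 5.57 to 6.31 in Acini. Relative to Acini, 4 of 21 tested defence genes rose and 5 fell in Ducts, and 6 rose and 4 fell in yDucts. The shares of all tested genes were 42.7% higher and 33.1% lower in Ducts, and 43.6% and 32.6% in yDucts. Wfdc2, a secreted protein of the whey acidic protein family, rose by 7.06 in Ducts and 6.99 in yDucts, and Ccl20, a chemokine, by 4.68 and 5.79. Between the organoids 1 was called, Reg3g, an antimicrobial lectin, at 3.20 to 4.15 in Ducts and 9.74 to 10.59 in yDucts (difference 6.33, limma, adjusted p = 1.62e-08), opposite in direction to S100a9. Among 12 tested S100 receptors and signalling genes, Tlr4 rose by 2.86 in Ducts and 3.61 in yDucts and its co-receptor Ly96 by 1.98 and 2.02, and 4 were higher and 3 lower in each. Bsg, a receptor of S100a9, rose by 2.22 and 2.41, and Cd36, a fatty acid transporter, fell by 4.08 and by 4.15. Ager, which encodes RAGE, was measured at 4.81 to 5.35 in Acini, 4.39 to 4.98 in Ducts and 4.15 to 4.57 in yDucts.

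**Figure D3:**
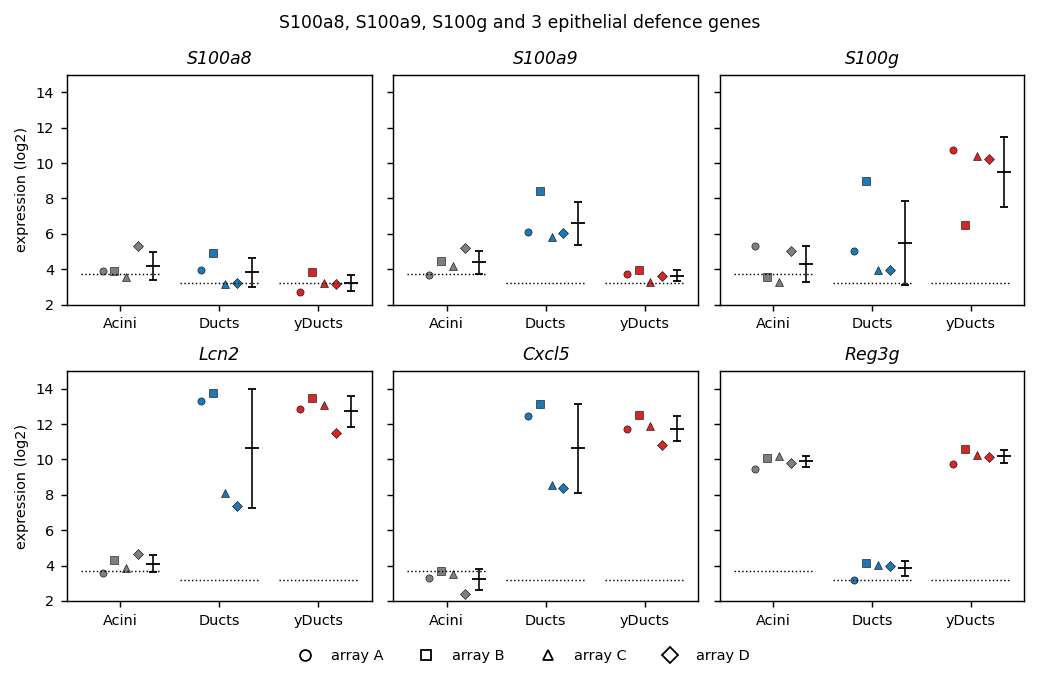
Expression (log2) of S100a8, S100a9 and S100g and of the defence genes Lcn2, Cxcl5 and Reg3g on each array of Acini, Ducts and yDucts, with mean ± SD (n = 4) beside each group and the mean of the group's 30th percentiles as a dotted line. S100a9 is raised on all 4 Ducts arrays, Lcn2 and Cxcl5 are raised in both organoid groups with Ducts C and D below Ducts A and B, and Reg3g is low in Ducts.

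S100a1, S100a13 and S100a16 had small differences in the deposited values, and their calls moved with the normalization. S100a13, which assists the release of FGF1 and interleukin 1 alpha, read 7.60, 7.04, 7.04 and 7.57 on Acini A to D, 7.05, 8.48, 7.86 and 7.45 on Ducts A to D and 8.09, 8.08, 7.86 and 8.17 on yDucts A to D. The yDucts arrays lay above the Acini arrays by 0.74 ± 0.26 (SE; limma, adjusted p = 0.0216), but the direction turned after quantile normalization (-0.17) and cyclic loess (-0.30), and the call was lost without Acini B, Acini C or yDucts D (0.65, 0.65 and 0.70, adjusted p = 0.0603, 0.0593 and 0.0514). The Ducts arrays overlapped the Acini arrays (0.40, limma, adjusted p = 0.184).

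S100a16, a widely expressed member, read 10.06, 9.92, 9.68 and 10.07 on Acini A to D, 9.56, 10.31, 9.0 and 8.37 on Ducts A to D and 9.30, 8.72, 9.45 and 9.27 on yDucts A to D. The yDucts arrays were all below the Acini arrays, yet the difference of -0.75 ± 0.33 was not called (limma, adjusted p = 0.0533), and it was called after quantile normalization (-1.53, adjusted p = 0.00185) and cyclic loess (-1.86, adjusted p = 0.00052). In Ducts the difference of -0.62 was not called either (limma, adjusted p = 0.101), and it was called after quantile normalization (-1.41, adjusted p = 0.00327), after cyclic loess (-1.74, adjusted p = 0.000885) and without Ducts B (-0.96, adjusted p = 0.00559). Its other probe set ranged from 9.16 to 9.61 in Acini and from 8.94 to 9.51 in yDucts, which overlap. S100a1, a regulator of calcium release and uptake in heart and skeletal muscle, read 8.21 to 8.76 in Acini, 7.57 to 9.35 in Ducts and 8.43 to 8.80 in yDucts on its brighter probe set. Its differences from Acini were -0.14 in Ducts (95% interval -0.78 to 0.50) and 0.20 in yDucts (-0.45 to 0.84), and neither was called. Quantile normalization gave -1.02 in Ducts (adjusted p = 0.0108) and -0.67 in yDucts (adjusted p = 0.0684), and cyclic loess gave -1.25 (adjusted p = 0.0037) and -0.92 (adjusted p = 0.021), whereas averaging the probe sets gave 0.19 in Ducts. The dimmer S100a1 probe set read 5.92 to 7.58 in Acini and 7.68 to 8.27 in yDucts, a difference of 1.03 (limma over all probe sets, adjusted p = 0.0193), so the probe sets of this gene disagreed.

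**Figure D4:**
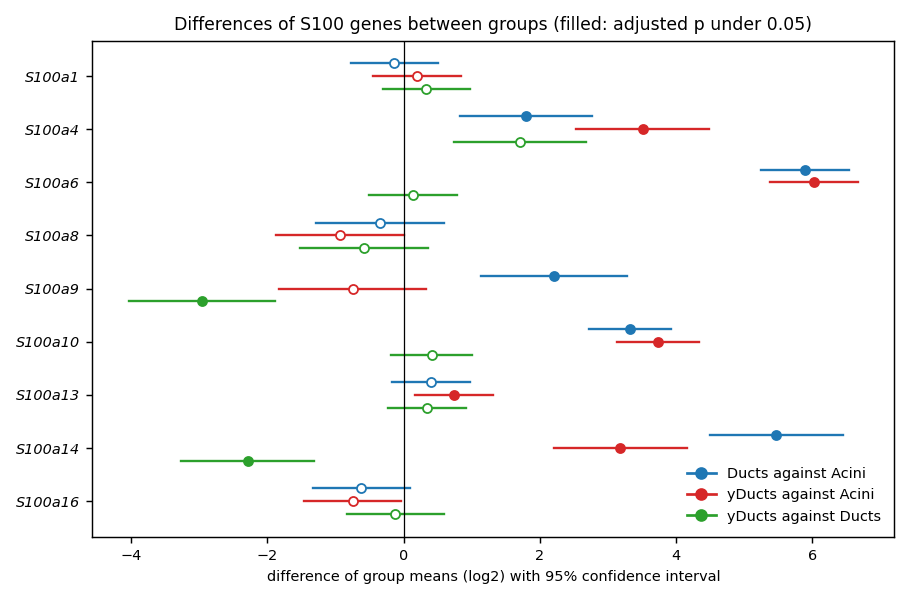
Differences of group means (log2) with 95% confidence intervals for the 9 measured S100 genes in Ducts against Acini, yDucts against Acini and yDucts against Ducts, filled where the adjusted p was under 0.05. The intervals of S100a6, S100a10 and S100a14 against Acini lie well above 0, those of S100a9 and S100a14 lie below 0 in yDucts against Ducts, and the small filled point of S100a13 (0.74) turned negative after quantile normalization and cyclic loess.

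Of the S100 genes outside these 10, S100g, S100a5, S100b and S100a3 were tested. S100g, or calbindin-D9k, the vitamin D-dependent calcium buffer of intestinal epithelium, read 5.33, 3.54, 3.30 and 5.03 on Acini A to D, 5.05, 8.97, 3.93 and 3.96 on Ducts A to D and 10.75, 6.52, 10.42 and 10.22 on yDucts A to D. It was high on yDucts A, C and D and on Ducts B, and lower on yDucts B, though above every Acini array. It rose 36.2-fold in yDucts against Acini (5.18 ± 1.13, limma, adjusted p = 0.00106). The difference from Ducts was not called (4.0, limma, adjusted p = 0.0837) and passed without Ducts B (5.16, adjusted p = 0.00557) or without yDucts B (4.99, adjusted p = 0.0221). Anxa10 was high on the same 4 organoid arrays, with 9.09 on Ducts B and 9.22, 8.57 and 7.89 on yDucts A, C and D, but its order on the others was different: 3.80, 5.57 and 4.35 on Ducts A, C and D and 3.87 on yDucts B. S100a5, known from olfactory neurons, fell by 1.46 in Ducts and by 1.55 in yDucts, and S100b, the glial member, fell by 0.995 in Ducts (limma, adjusted p = 0.0065), a call lost after quantile normalization (-0.76, adjusted p = 0.0665). S100a3 lay between 3.38 and 4.68 and was not called.

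Of 18 tested binding partners of S100 proteins, 9 were higher and 7 lower than in Acini in Ducts, with the same counts in yDucts, and none was called between the organoids. The higher counts lay near the shares of all tested genes, 42.7% in Ducts and 43.6% in yDucts. Lower calls made up 33.1% and 32.6% of all tested genes. Ahnak, a giant scaffold protein that binds the S100a10 and annexin A2 complex, rose by 3.04 in Ducts and 2.88 in yDucts. Mdm2, the ubiquitin ligase of p53, rose by 3.17 and 3.28. Plat, tissue plasminogen activator, whose product binds the same complex at the cell surface, read 10.12, 11.10, 6.10 and 5.78 on Ducts A to D and 9.87 to 10.48 in yDucts, against 5.32 to 5.89 in Acini. Its rise was 2.67 in Ducts and 4.64 in yDucts, and within Ducts it separated A and B from C and D. Trpv6, a calcium channel bound by S100a10 and annexin A2, fell by 1.67 in Ducts (limma, adjusted p = 0.0406) and by 2.62 in yDucts. Its value was 7.51 on Ducts B against 3.59 to 3.87 on the other Ducts arrays.

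The S100a genes lie in 2 runs on mouse chromosome 3, and neighbouring genes differed unequally from Acini. In the first run, ordered from S100a1 to S100a9 between the tested genes Chtop and Lor, S100a14 (5.47 in Ducts against Acini) lay beside S100a16 (-0.62, not called) and S100a13 (0.40, not called). S100a5 (-1.46) lay between S100a4 (1.80) and S100a6 (5.89), and S100a8 (-0.35, not called) beside S100a9 (2.21). Lor, which encodes loricrin of the cornified envelope, rose by 7.10 in Ducts and 7.05 in yDucts, and Chtop rose by 2.05 and 2.01. In the second run S100a10 (3.32) was flanked by S100a11, not measured alone, and by Them4 (1.05), with Rptn, a fused-type S100 gene of cornified epithelium, at -1.56.

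**Figure D5:**
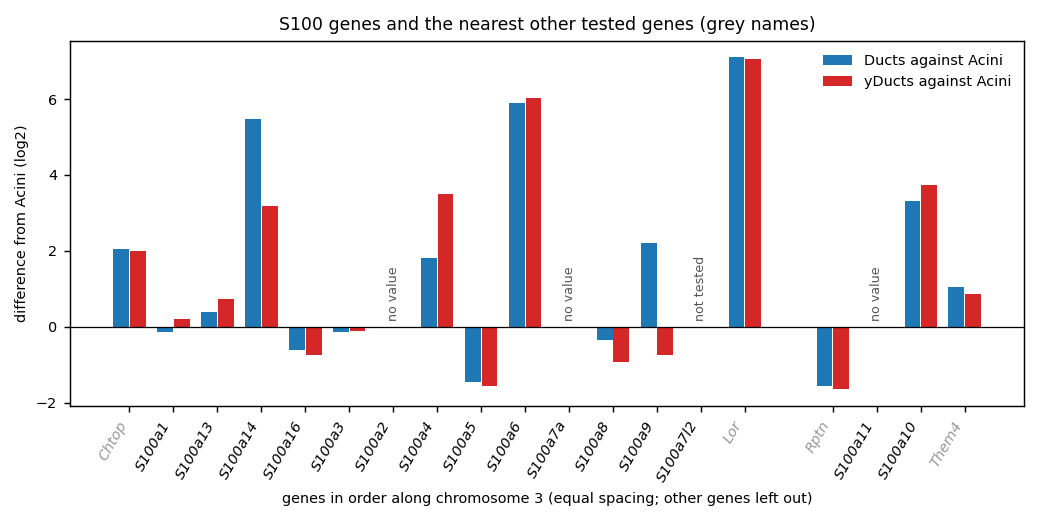
Difference from Acini (log2) of Ducts and yDucts for S100 genes in their order along chromosome 3, drawn at equal spacing, with the nearest other tested genes in grey and genes without a tested value marked. Tall bars at S100a14, S100a6 and S100a10 stand beside short or negative bars at S100a16 and S100a5; the sign of the short bars of S100a1, S100a13, S100a3 and S100a8 changed under some normalizations.

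Within groups, after each group's mean was removed, S100a1 and S100a16 deviated most alike among the members (r = 0.92 over 12 arrays), followed by S100a1 with S100a9 (0.81), S100a8 with S100a9 (0.80), S100a1 with S100a10 (0.79) and S100a4 with S100a14 (0.75). The genes nearest to S100a4 in this measure were Ptprb, Itga7 and Rcan2 (r = 0.87 to 0.90), those nearest to S100a9 were 4930415O20Rik, Gpx1 and Cdo1 (r = 0.94 to 0.95), and those nearest to S100a14 were Prss29, Cdc42ep5 and Hemk1 (r = 0.88 to 0.90). Nrip2, Pi4k2b and Alg9 came nearest to S100a10 (r = 0.97) and Gjb1, Pigyl and Cela1 to S100a1 (r = 0.96 to 0.97). For S100a16 they were Atp5k, Il18 and Pmvk (r = 0.97 to 0.98), for S100a13 Gstm3, Naip2 and Apobec3 (r = 0.91 to 0.94) and for S100a8 Bves, Etv3 and Ccdc126 (r = 0.92 to 0.95). These values describe 12 arrays, of which Ducts C and D were near copies, as were yDucts A, C and D. The top genes were picked from all tested genes.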

How the data were processed

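RNA from 12 samples was measured on 1 Affymetrix array each. The authors deposited log2 values per probe set, made with RMA per the submitters' processing notes; neither its version nor the chip definition is given in the sources used here. RMA values are relative to the other genes of an array, and the precision is limited by 4 arrays a group. Of 45101 probe sets, 34958 carried 1 gene symbol, 932 several and 9211 none. The brightest single-symbol probe set stood for each gene, and genes above the 30th percentile of their array on at least 4 arrays were tested (14991 genes). Group means were fitted over the 12 arrays with limma 3.58.1 in R 4.3.3 and p-values adjusted by Benjamini-Hochberg; the script was tested on simulated data. Symbols followed the platform annotation, and 34754 probe sets matched RefSeq (GRCm38.p6) by gene identifier. The members and lists were chosen with earlier results of these data known. Text names all members, tested S100 genes, up to 4 called genes with the largest difference per list and comparison, the 3 genes most alike in within-group deviation for members whose SD within an organoid group exceeded 0.5, chromosome neighbours and lead markers. Anxa2, Anxa6, Anxa10, Ager, Muc1, Pigr, Duoxa2, Saa1, Saa3, Reg3b, Ngp, Elane and Mmp9 were added after their values were seen. Alternatives covered normalization, filters, probe set choice, the model and each array left out.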

Additional observations from a re-analysis of the deposited data

Results flagged for a closer look

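Among 117 groups of 4 values examined for the named genes, 10 held an array far from the other 3, and chance marks about 1 group in 20. For the members these were S100a9 on Ducts B (8.42, others 5.79 to 6.09), S100a14 on Ducts A (9.11, others 10.38 to 10.50) and S100a1 on yDucts B (8.43, others 8.75 to 8.80). Without Ducts B, S100a9 differed from Acini by 1.60 in place of 2.21. Other S100 genes were S100g on yDucts B (6.52, others 10.22 to 10.75) and S100a3 on yDucts D (4.68, others 3.47 to 3.64). Outside the family these were Trpv6 on Ducts B (7.51, others 3.59 to 3.87), Reg3g on Ducts A (3.20, others 3.99 to 4.15), Rcn1, a calcium-binding protein of the endoplasmic reticulum, on Ducts A (5.94, others 3.86 to 4.06), Ncald on yDucts B (5.55, others 6.36 to 6.51) and Hltf on Acini D (4.93, others 6.53 to 6.77).

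The 2 kinds of organoid differed for S100a9 (yDucts minus Ducts -2.96, adjusted p = 0.00531) and S100a14 (-2.29, adjusted p = 0.0143), as tested directly by limma.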

How the results depend on the processing

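S100a6, S100a10 and S100a14 against Acini, S100a9 in Ducts against Acini and in yDucts against Ducts (-3.62 to -2.29, adjusted p 6.62e-06 to 0.0335), and S100a4 and S100g in yDucts against Acini kept direction and call under all 27 alternatives, 3 of which (without Ducts A and B, without Ducts C and D, near-identical arrays averaged) were chosen after seeing the data. The averaging joined Ducts C with D and yDucts A with C. yDucts D, which differed from yDucts A and C by more than 2-fold at 96 and 103 genes, stayed separate. Of 1041 alternative values of S100 genes, 947 kept direction and side of the threshold, 11 lost the call, 44 gained one and 39 changed sign. The cause was not tested.

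Same-lettered arrays did not deviate alike from their group means (r between Ducts and yDucts -0.35 to 0.13, with Acini -0.02 to 0.05). Such correlations cannot show whether same-lettered samples shared an animal or isolation. With the letter as a replicate block, 1 S100 gene was called higher in yDucts than in Ducts, S100a4 (adjusted p = 0.0393), and calls between the organoids fell to 271 higher and 117 lower genes.

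S100 genes called lower in Ducts against Acini, 0 in the report, were 2 after quantile normalization, 2 after cyclic loess, 1 with array weights and 2 without Ducts A and B. In yDucts against Acini, also 0, they were 1 after quantile normalization, 2 after loess, 3 with only the 2 groups fitted, 1 with array weights, 1 with a mean-variance trend, 3 without Ducts A and B, 2 without Ducts C and D and 1 with near-identical arrays averaged. In yDucts against Ducts, higher calls were 3 with array weights and 1 without Ducts A and B, and lower calls, 2 in the report, were 1 without Ducts C and D and 1 with near-identical arrays averaged (S100a14 -2.14, adjusted p = 0.142). Leaving out 1 array gave 0 to 1 lower calls in Ducts and 0 to 3 in yDucts against Acini, and 0 to 1 higher and 1 to 2 lower calls between the organoids.

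Between the organoids, pathway genes called, 3 in the report, were 50 with array weights, 30 without Ducts A and B, 6 without Ducts C and D and 2 to 10 with 1 array left out. All genes called, 470 in the report, were 6183, 2184 and 136 with array weights, without Ducts A and B and with near-identical arrays averaged, and 216 (without yDucts A) to 836 (without Ducts B) with 1 array left out.

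Signs changed for values that were not called in the report, except that of S100a13 in yDucts against Acini (0.74). In Ducts against Acini, quantile normalization gave S100a13 -0.49 and S100a3 0.30, and loess gave S100a8 0.20, S100a13 -0.64 and S100a3 0.41. In yDucts against Acini they gave S100a1 -0.67 and -0.92, S100a13 -0.17 and -0.30 and S100a3 0.33 and 0.45. Centring on medians gave S100a1 0.073 and S100a3 0.07 in Ducts and S100a3 0.11 in yDucts, and moved the median of all genes to 0.42 and 0.46 and the share of higher calls to 63.7% and 64.8%; after loess the shares were 41.4% and 43%, without a filter 47.1% and 47.7%, and at the 50th percentile 67.7% and 68.7%. With array weights the share between the organoids went from 68.5% to 50.9%. S100a1 in Ducts became 0.19 with probe sets averaged, 0.52 with the most variable one, 0.39 without Ducts C and D and 0.039 with near-identical arrays averaged. Array weights gave S100a3 0.050 in Ducts against Acini and -0.15 between the organoids, and S100a16 0.38 there. Without Ducts A and B, S100a3 was 0.085 and S100g -0.36 in Ducts against Acini, and S100a8 0.045, S100a16 0.50 and S100a3 -0.20 between the organoids. Without Ducts C and D, S100a8 was 0.28 and S100a16 0.0025 in Ducts against Acini, and S100a1 -0.20, S100a10 -0.033 and S100a5 0.0025 between the organoids. With 1 array left out, S100a1 ranged from -0.47 to 0.12, S100a8 from -0.72 to 0.033 and S100a3 from -0.24 to 0.005 in Ducts against Acini, S100a3 from -0.39 to 0.012 in yDucts against Acini, and S100a16 from -0.44 to 0.21 and S100a3 from -0.25 to 0.15 between the organoids.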

Other observations

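Other EF-hand calcium-binding genes, outside the S100 family, changed in both directions. Relative to Acini, 11 of 21 tested genes rose and 9 fell in Ducts (median difference 0.70), and 13 rose and 6 fell in yDucts (median 0.99). Of all tested genes, 42.7% were called higher and 33.1% lower in Ducts, and 43.6% and 32.6% in yDucts. Calml4, a calmodulin-like protein of the brush border, rose by 5.19 in Ducts and 4.93 in yDucts. Rcn2 rose by 3.49 and 3.75 and Cetn3, a centrin, by 2.39 and 2.59, whereas Nucb2, the nesfatin precursor, fell by 2.95 and by 3.44. Between the organoids 2 were called, both higher in yDucts. Rcn1 read 5.94, 3.86, 4.04 and 4.06 on Ducts A to D and 7.83 to 8.25 in yDucts (difference 3.64, limma, adjusted p = 0.000177), with Acini between at 6.01 to 7.07. Ncald, a neuronal calcium sensor, read 4.41 to 4.90 in Ducts and 5.55 to 6.51 in yDucts (difference 1.55, limma, adjusted p = 0.0356).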
